A study of Homo sapiens with 6 samples.

Results

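This account covers 35 genes that carry out or hold back apoptosis: the BCL2 family, the caspases with their activating complexes, and the inhibitors of apoptosis (IAPs). The genes were chosen by name from these families, with earlier results of these data known. Their transcripts were measured on one-colour Affymetrix arrays in SW480 cells, a long-established line from a human colon cancer that carries mutant p53. On 3 arrays the RNA came from cells given an shRNA (short hairpin RNA) against gankyrin for 4 days, and on 3 arrays from cells given a non-targeting shRNA for 4 days. Gankyrin, encoded by PSMD10, is an assembly chaperone of the proteasome that also binds the retinoblastoma protein, CDK4 and MDM2. The labels give neither the number of hairpins nor whether replicates came from separate cultures, so each p-value here is set by how far these arrays lie apart, and that distance may be technical. Values are the deposited log2 probe set signals. Of the 35 genes, 33 had a probe set paired with that gene alone and 31 passed a filter on dim signals, out of 14199 genes tested in all. BCL2A1 and HRK lay under the filter, and BIRC3 and RIPK1 were not analysed here because no probe set was paired with either in the annotation used.

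In the mitochondrial pathway of apoptosis, BH3-only proteins such as BIM, BID and NOXA bind the anti-apoptotic members BCL2, BCL-XL and MCL1 or activate the pore formers BAX and BAK1. Pores in the outer mitochondrial membrane release cytochrome c, which assembles APAF1 into the apoptosome that activates caspase-9, and DIABLO (also called SMAC), which relieves caspases from the IAPs. In the death receptor pathway, TRAIL binds receptors such as TNFRSF10A, FADD brings in caspase-8 or caspase-10, and the product of CFLAR (c-FLIP) can block that step. Both pathways meet at BID, which caspase-8 cleaves.

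On the deposited scale, the genes of this set that passed were all lower after gankyrin knockdown. Centring arrays on their medians gave 5 falls and 2 rises instead. That centred fit called 20.1% of all genes tested, and 48.8% of those calls were rises. As deposited, 9 of the 31 tested genes fell and 0 rose at an adjusted p under 0.05 in limma. In all, 22 did not pass and 13 of the 31 had an unadjusted p under 0.05. Across all genes tested, 22.5% passed in either direction, 14.3% fell and 8.13% rose. The 9 that fell were TNFRSF10A, BIK, APAF1, BOK, BMF, BCL2L1, TRADD, BID and XIAP, by between 1.16-fold (XIAP) and 1.69-fold (TNFRSF10A). By role, 6 of 18 tested pro-apoptotic genes fell and 2 of 9 tested anti-apoptotic genes fell, and the difference between these shares was not tested. The median log2 difference (knockdown minus control) was -0.12 for the pro-apoptotic genes, -0.05 for the anti-apoptotic genes, -0.08 for all 31 and -0.02 for all genes. The other 4 tested genes, BCL2L13, CASP1, CASP4 and TRADD, were counted in neither class because their role in death is mixed or lies in inflammation and signalling, and 1 of the 4 fell.

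Knockdown and control values did not overlap for 13 of the 31 tested genes, 11 of them lower and 2 higher after knockdown. Over all genes tested, 40.3% had no overlap, with 24.6% lower and 15.7% higher. Each such gene has p = 0.1 by exact permutation of the array labels (two-sided), and no smaller p is possible with 3 arrays a group. The median SD of a tested apoptosis gene was 0.07 in knockdown arrays and 0.08 in control arrays, against 0.07 and 0.11 for all genes. Arrays of bulk RNA cannot tell fewer cells carrying a transcript from less transcript per cell.

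**Figure D1:**
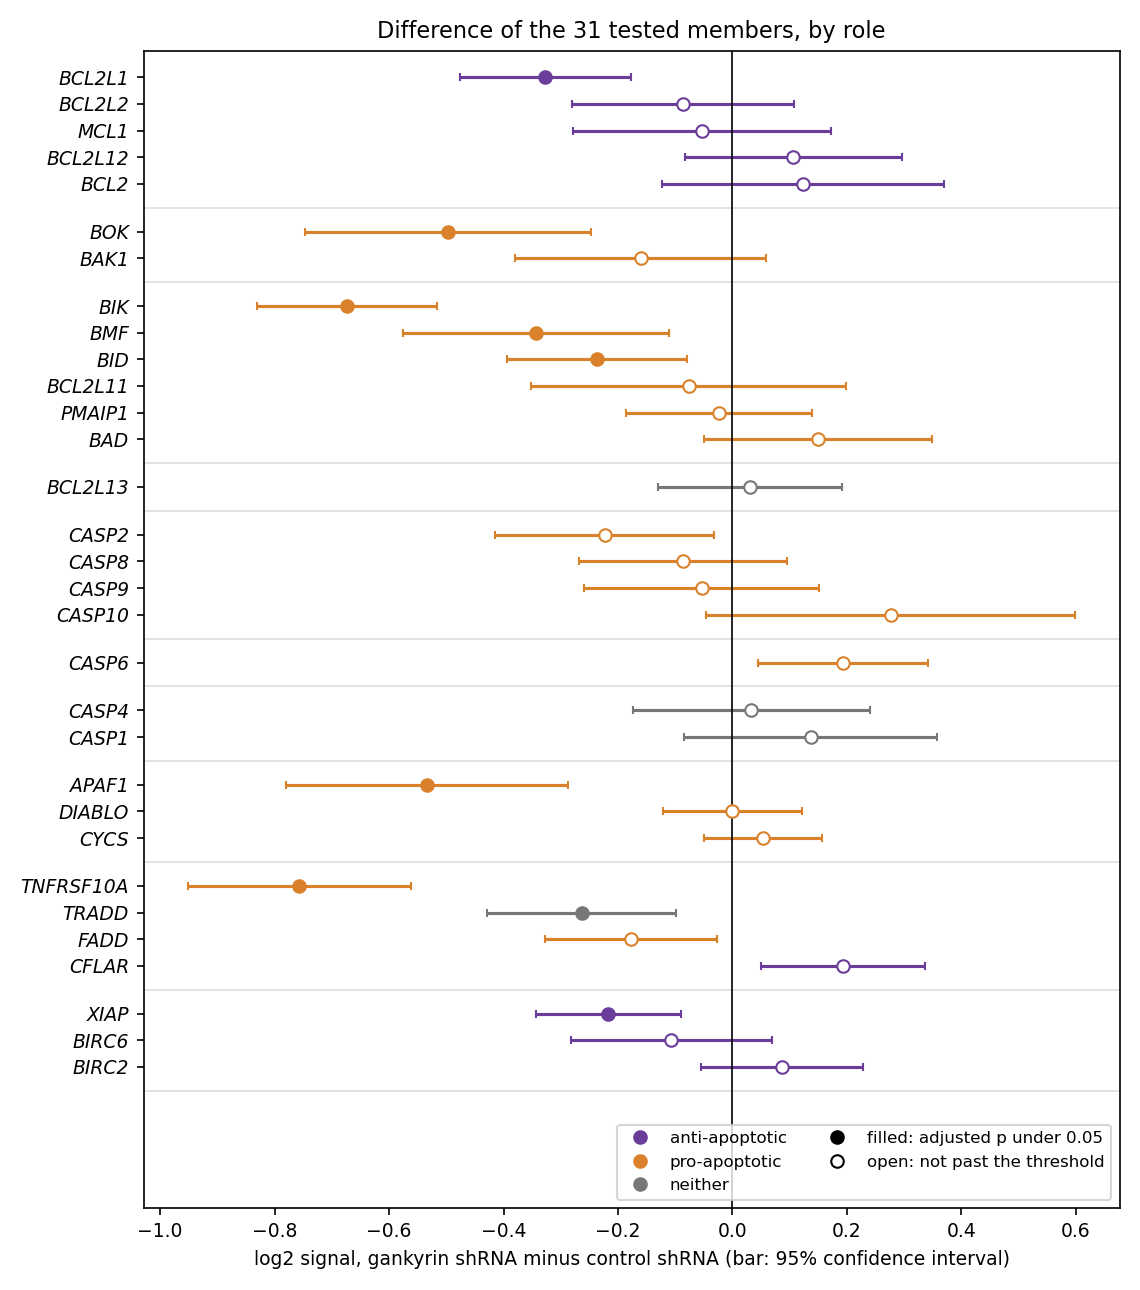
Difference in log2 signal, gankyrin shRNA minus control shRNA, for the 31 tested apoptosis genes (points) with 95% confidence intervals (bars), grouped by role from top to bottom. Filled points passed at an adjusted p under 0.05. All 9 filled points lie left of 0, from TNFRSF10A at -0.76 to XIAP at -0.22, and no caspase is filled.

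The shRNA target checked the labels. PSMD10 was at 6.58, 6.47 and 6.30 on the knockdown arrays, against 10.19, 10.23 and 10.15 on the control arrays. The design text calls the hairpin NFIL3 shRNA in 1 place, and NFIL3 averaged 9.07 ± 0.05 in knockdown and 9.33 ± 0.13 in control arrays (SD, n = 3 each). NFIL3 fell by 0.26 ± 0.07 SE (limma, adjusted p = 0.0281), and this call was lost under 6 of 15 alternative fits. Array medians lay between 4.20 and 4.25. Of 8 epithelial and colon markers 7 lay above 4.76, the level that bounds 95% of 38 probe sets of tissue-restricted genes. CDX2 did not, at 4.12 and 4.19, and leukocyte PTPRC (2.63 and 2.66), endothelial CDH5 (2.56 and 2.45) and hepatic ALB (2.49 and 2.46) were lower still, each given as knockdown and control means. Of the markers of other cell types with a probe set, 1 of 6 fibroblast, 2 of 6 leukocyte, 2 of 4 endothelial and 1 of 3 hepatocyte genes lay above 4.76. The highest of each type were COL1A1 (7.22 and 7.01), LYZ (12.27 and 12.31), PECAM1 (5.05 and 5.11) and TTR (6.22 and 6.13). LYZ was thus as bright as the epithelial marker EPCAM (12.20 in both groups). None of the markers of other cell types that were tested passed in limma. Among the epithelial markers KRT19 and CDH1 fell and VIL1 rose. Control replicate 3 stood apart: the 3' minus 5' difference of the ACTB control probe sets was 1.82 there, against 0.43 to 0.53 on the 3 knockdown arrays and 0.51 and 0.52 on the other control arrays. For GAPDH it was 0.56 there and between -0.11 and 0 on the other 5 arrays. The 3 control probe sets for 18S ribosomal RNA were higher after knockdown by 0.79 to 1.29, and their part in the results was not tested.

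Control replicate 3 also split the probe sets of single apoptosis genes. Of the 92 probe sets past the filter for the 31 genes, 14 (15.2%, against 6.65% of all probe sets) lay more than 0.5 below both other control arrays on this array and 1 lay more than 0.5 above both. On the other 5 arrays together, 1 of the 92 lay that far below and 0 that far above the other arrays of its group. A probe set of MCL1 was at 3.90 on control replicate 3, against 8.36 and 8.57 on the other control arrays. Its knockdown values were 8.25, 8.46 and 8.36. None of the 31 brightest probe sets, on which the calls rest, lay more than 0.5 from both other arrays of its group on any array. Over all 14199 genes, 1.12% of brightest probe sets lay that far below and 2.16% that far above on control replicate 3. Calls by gene that change without this array are given below.

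**Figure D2:**
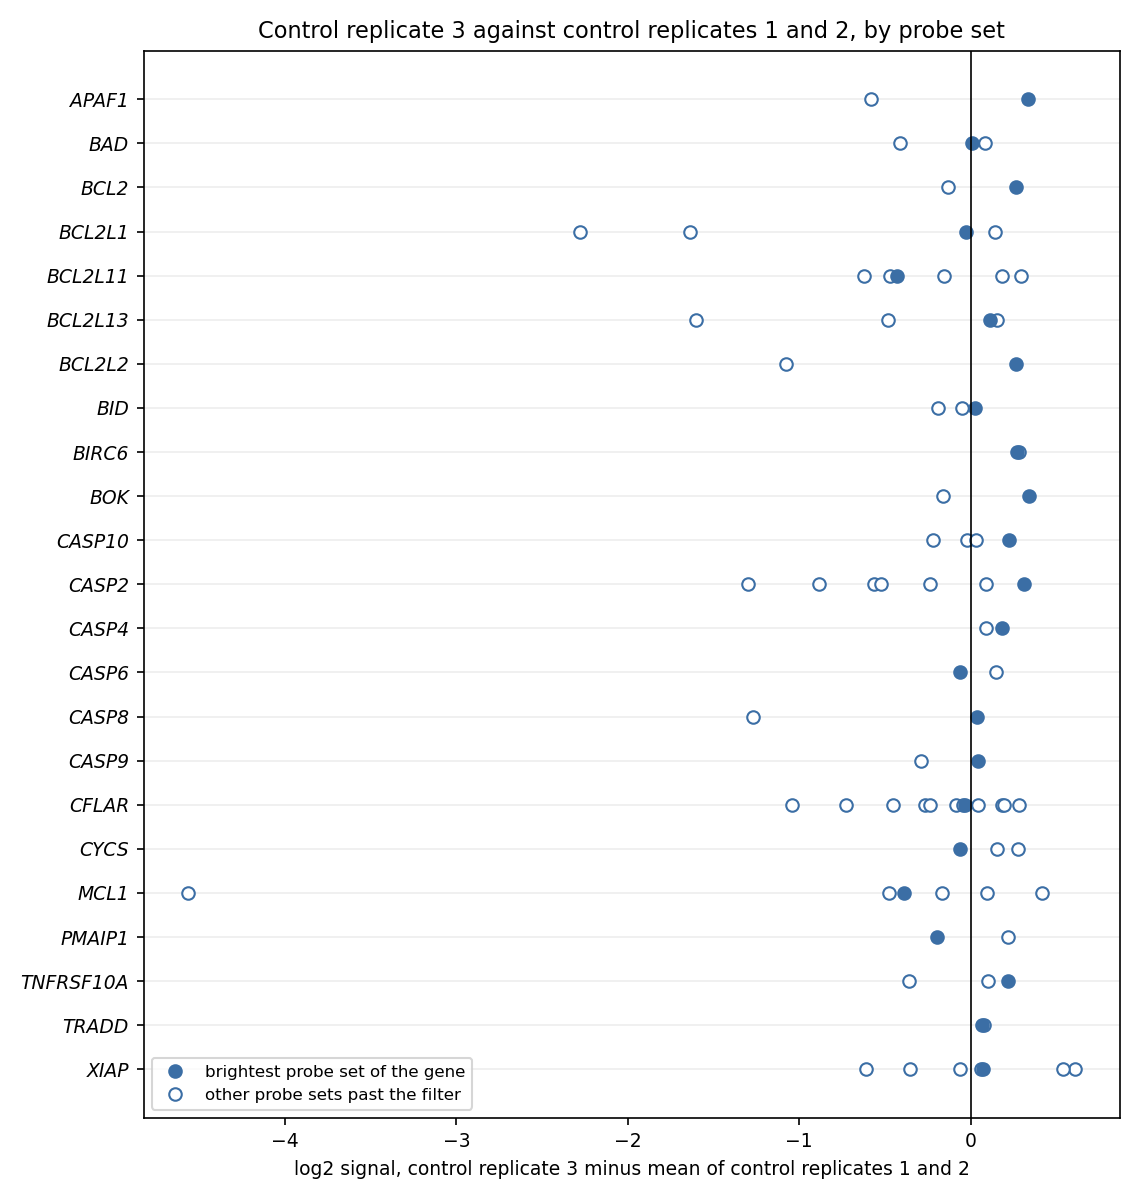
Log2 signal of control replicate 3 minus the mean of control replicates 1 and 2 for every probe set past the filter of the genes with more than 1 such probe set. Filled points are the brightest probe set of a gene, and open points are the others. Open points of MCL1, BCL2L1, BCL2L13, BCL2L2, CASP2, CASP8 and CFLAR reach below -1, while the filled points stay within 0.5 of 0.

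Without control replicate 3, all 9 falls remained called, and 2 further falls (BCL2L11 and MCL1) and 2 rises (CASP6 and CFLAR) passed, 11 and 2 in all. Across all genes 16.6% then fell and 12.7% rose. BIK and TNFRSF10A were the 2 of 9 whose calls held under all 15 alternatives. APAF1 and BCL2L1 also held whichever single array was left out.

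The anti-apoptotic BCL2 proteins had 1 fall among 5 tested genes, where 14.3% of all genes tested fell. BCL2L1, which encodes BCL-XL and by splicing the shorter pro-apoptotic BCL-XS, was at 9.80, 9.83 and 9.59 on the knockdown arrays, against 10.08, 10.07 and 10.05 on the control arrays. All 3 knockdown values lay below all control values, and knockdown replicate 3 was the lowest. BCL2L1 fell by 0.33 ± 0.07 SE on the log2 scale, or 1.25-fold (limma, adjusted p = 0.00723). The probe sets were not assigned to splice forms. A pair of dimmer BCL2L1 probe sets were at 0.22 and 0.45 over the 6 arrays, with control replicate 3 at 6.97 and 6.20 and the other control arrays between 8.39 and 8.64. Without that array they were at -0.33 and -0.31 (adjusted p = 0.0512 and 0.0844), beside -0.34 on the brightest probe set. The average of the 4 BCL2L1 probe sets gave 0.04 over 6 arrays and -0.28 without control replicate 3 (limma, adjusted p = 0.928 and 0.0164).

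MCL1, a short-lived protector of mitochondria, did not pass on its brightest probe set. Its values were 10.63, 10.85 and 10.67 on the knockdown arrays and 10.90, 10.90 and 10.51 on the control arrays, a difference of -0.05 (95% interval -0.28 to 0.17). Control replicate 3 was the lowest of the 6, so the groups overlapped. Without it MCL1 was at -0.18 ± 0.06 SE (adjusted p = 0.0208). A second bright MCL1 probe set read 10.24, 10.27 and 10.15 after knockdown and 10.50, 10.57 and 10.63 in control arrays. It differed by -0.35 ± 0.05 SE in the fit over all 32759 probe sets (adjusted p = 0.0112).

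The remaining anti-apoptotic members of the family did not pass. BCL2 itself was near the low end of the scale, at 4.01, 4.17 and 4.05 on the knockdown arrays and 3.82, 3.91 and 4.13 on the control arrays, a difference of 0.12 (95% interval -0.12 to 0.37). BCL2L2, which encodes BCL-W, differed by -0.09 (-0.28 to 0.11). BCL2L12, whose product has been linked to caspase and p53 inhibition, differed by 0.11 (-0.08 to 0.30). BCL2A1, an NF-kB-inducible member, lay under the filter at a mean of 1.85 after knockdown and 1.91 in control arrays and was not tested.

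Of the pore formers in this set, BOK fell and BAK1 did not pass. BAX is not in the set or its tallies by role, and is given below with other genes of the pathway. It rose by 0.30 (limma, adjusted p = 0.0271). BOK, a relative of BAX and BAK1, was at 7.25, 7.25 and 7.00 on the knockdown arrays and 7.54, 7.56 and 7.89 on the control arrays. The groups did not overlap, and the highest value was that of control replicate 3. BOK fell by 0.50 ± 0.11 SE, or 1.41-fold (limma, adjusted p = 0.0117), and by 0.38 without control replicate 3 (adjusted p = 0.00212). The call was lost without knockdown replicate 3 (-0.41, adjusted p = 0.0604). It was also lost when the BOK probe sets were averaged (-0.22, adjusted p = 0.0662), the other one lying at 3.67 after knockdown and 3.62 in control arrays, under the 4.76 of tissue-restricted genes. With probe sets ending in _x_at or _s_at avoided, that dim probe set stood for BOK and the direction turned (0.053, adjusted p = 0.782). BAK1 was at 6.30, 6.27 and 6.13 after knockdown, against 6.27, 6.37 and 6.54, a difference of -0.16 (95% interval -0.38 to 0.06).

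Among the BH3-only genes 3 of 6 tested fell, where 14.3% of all genes tested fell. BIK, a BCL2-interacting killer that acts at the endoplasmic reticulum, was at 7.44, 7.46 and 7.42 on the knockdown arrays and 8.09, 8.19 and 8.06 on the control arrays. The groups were far apart relative to their spread, with an SD of 0.02 in knockdown and 0.07 in control arrays. BIK fell by 0.67 ± 0.07 SE, or 1.59-fold (limma, adjusted p = 0.000212). Its adjusted p stayed between 1.08e-06 and 0.00292 when any single array was left out, and BIK has 1 probe set.

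BMF and BID fell by less. BMF, which in healthy cells is tied to the actin and myosin cytoskeleton, was at 5.08, 5.15 and 4.99 after knockdown, against 5.50, 5.25 and 5.50. The gap between the groups was small, because control replicate 2 lay close to the knockdown arrays. BMF fell by 0.34 ± 0.10 SE (limma, adjusted p = 0.0399). It has 1 probe set, which did not pass in the fit over all probe sets. The adjusted p there was 0.0869 over 6 arrays and 0.0744 without control replicate 3. The BMF call was lost when knockdown replicate 1, 2 or 3 or control replicate 1 was left out (adjusted p = 0.111, 0.0782, 0.142 and 0.103), with each array centred on its median (0.0668) and with no filter (0.0535).

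BID, the link between death receptors and mitochondria, was at 8.17, 8.24 and 8.30 after knockdown and 8.39, 8.54 and 8.49 in control arrays. The groups did not overlap, and BID fell by 0.24 ± 0.07 SE (limma, adjusted p = 0.0369). All 3 BID probe sets were lower, the others by 0.31 (adjusted p = 0.0451 over all probe sets) and 0.11 (0.429). The brightest BID probe set, on which the call rests, did not pass in the fit over all probe sets (adjusted p = 0.0759). It passed there only without control replicate 3 (0.0268). The BID call was lost without knockdown replicate 1, 2 or 3 or control replicate 2 (adjusted p = 0.149, 0.113, 0.0733 and 0.120), with centring on array medians (0.0989), with averaged probe sets (0.0505) and with no intensity trend (0.0589). It was also lost when probe sets ending in _s_at or _x_at were avoided (0.389).

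The other BH3-only genes did not pass. BCL2L11, which encodes BIM, was at 7.30, 7.40 and 7.32 after knockdown and 7.68, 7.44 and 7.13 in control arrays on its brightest probe set. Control values spanned the knockdown values, with control replicate 3 the lowest. The difference was -0.08 (95% interval -0.35 to 0.20), and without control replicate 3 it was -0.22 ± 0.08 SE (adjusted p = 0.0445). Of the 6 BCL2L11 probe sets past the filter, 1 fell over 6 arrays (-0.54, adjusted p = 0.0277) and 2 fell without control replicate 3. PMAIP1, which encodes NOXA, the partner of MCL1, differed by -0.02 (-0.19 to 0.14). Its second probe set, at 7.70, 7.71 and 7.62 after knockdown and 7.85, 8.06 and 8.17 in control arrays, was at -0.35 (adjusted p = 0.0573 over all probe sets) and passed as lower without control replicate 3 (-0.28, 0.0172). BAD, a BH3-only protein silenced by survival kinases, differed by 0.15 (-0.05 to 0.35). HRK, known mainly from neurons, lay under the filter at 3.40 after knockdown and 3.12 in control arrays. BCL2L13, a mitochondrial protein also known as a mitophagy receptor, differed by 0.03 (-0.13 to 0.19).

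**Figure D3:**
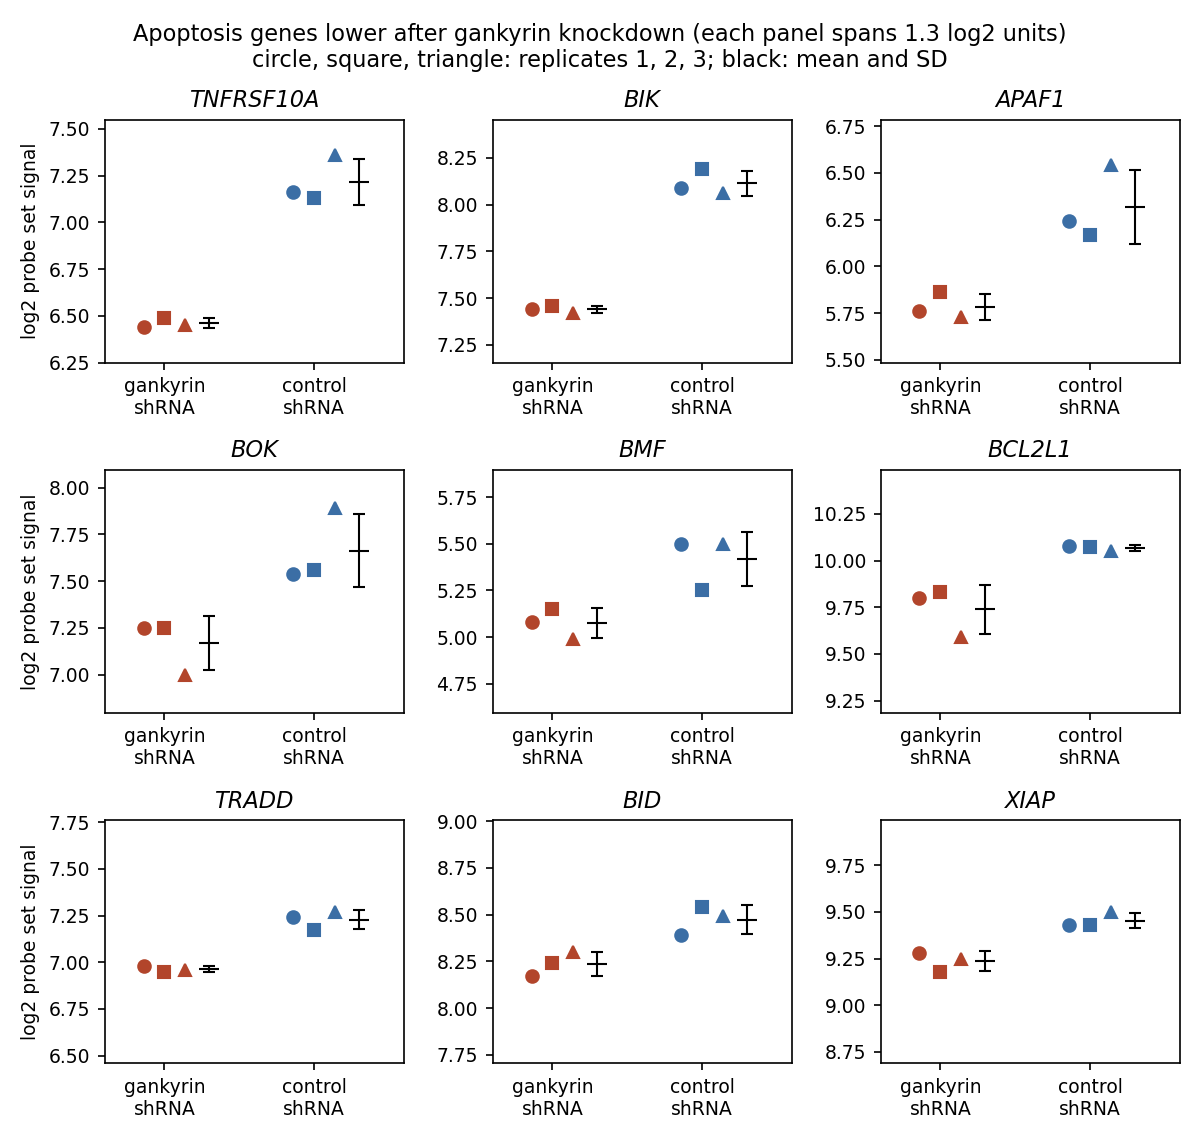
Log2 probe set signal of the 9 apoptosis genes that fell, on each of the 3 gankyrin shRNA arrays (left, red) and 3 control shRNA arrays (right, blue), with the mean and SD in black. Each panel spans the same range of 1.3 log2 units. In every panel the 3 knockdown values lie below the 3 control values, with the widest gaps for TNFRSF10A and BIK.

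None of the 7 caspase genes passed in limma, where 22.5% of all genes tested did, while 2 had an unadjusted p under 0.05. CASP2, an initiator linked to the PIDDosome, was at 8.86, 8.91 and 8.87 after knockdown and 8.98, 9.02 and 9.31 in control arrays. Its groups did not overlap, yet the difference of -0.22 (95% interval -0.41 to -0.03) had an adjusted p of 0.0902, and it was -0.12 without control replicate 3. Of the 7 CASP2 probe sets past the filter, the brightest was lower and the 6 others were higher after knockdown, by 0.16 to 0.59. One of them, at 6.05, 6.03 and 5.79 against 5.60, 5.55 and 5.34, passed as higher (0.46 ± 0.12 SE, adjusted p = 0.0478), and a second passed as higher without control replicate 3 (0.35, adjusted p = 0.0161). With its probe sets averaged, CASP2 was at 0.33 (adjusted p = 0.105), so the probe sets do not give 1 direction for the gene.

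CASP6, an executioner that cleaves lamins, was at 8.10, 8.05 and 8.14 after knockdown and 7.92, 7.93 and 7.86 in control arrays. Every knockdown value lay above every control value. The difference of 0.19 ± 0.07 SE had an adjusted p of 0.0643 and passed without control replicate 3 (0.17, adjusted p = 0.0443), with centred medians (0.23, 0.0429) and after quantile normalization (0.22, 0.0363). The second CASP6 probe set was at -0.13. CASP8, the initiator at death receptors, differed by -0.09 (95% interval -0.27 to 0.10) and CASP9, the apoptosome's initiator, by -0.05 (-0.26 to 0.15). CASP10, a relative of CASP8, was at 5.11, 5.08 and 4.80 after knockdown and 4.88, 4.41 and 4.87 in control arrays, a difference of 0.28 (-0.05 to 0.60) in which the groups overlapped. Of the inflammatory caspases, CASP1 differed by 0.14 (-0.08 to 0.36) and CASP4 by 0.03 (-0.17 to 0.24). Of 5 probe sets paired with CASP1 alone, only 1 passed the filter, at a mean of 5.07 after knockdown and 4.94 in control arrays. The next brightest averaged 3.20 and 3.17. The probe set used has the _x_at ending, and a further CASP1 probe set is annotated to CARD16 as well.

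Of the apoptosome and the proteins that mitochondria release, APAF1 fell. APAF1 was at 5.76, 5.86 and 5.73 on the knockdown arrays, against 6.24, 6.17 and 6.54 on the control arrays. The groups did not overlap, and control replicate 3 was the highest. APAF1 fell by 0.53 ± 0.11 SE, or 1.45-fold (limma, adjusted p = 0.00750), and by 0.42 without control replicate 3 (adjusted p = 0.00164). A dimmer APAF1 probe set was at 0.08 over 6 arrays and -0.12 without control replicate 3 (adjusted p = 0.801 and 0.464), and the average of both lost the call (-0.23, adjusted p = 0.0686).

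Cytochrome c and DIABLO did not differ by more than the spread between arrays. CYCS was at 11.86, 11.96 and 12.02 after knockdown and 11.92, 11.91 and 11.85 in control arrays, a difference of 0.05 (95% interval -0.05 to 0.16). DIABLO averaged 9.51 ± 0.05 after knockdown and 9.51 ± 0.03 in control arrays (SD, n = 3 each), and the interval of its difference was -0.12 to 0.12.

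The promoters of APAF1 and BOK are shown because these were the largest falls with a single start in the promoter table of RefSeq (GRCh38.p14). Each runs from 250 bases before to 50 bases after the start, 5′ to 3′, on the gene's strand. Capitals mark matches to the GC box (GGGCGG) or the CCAAT box (CCAAT) on either strand.
APAF1: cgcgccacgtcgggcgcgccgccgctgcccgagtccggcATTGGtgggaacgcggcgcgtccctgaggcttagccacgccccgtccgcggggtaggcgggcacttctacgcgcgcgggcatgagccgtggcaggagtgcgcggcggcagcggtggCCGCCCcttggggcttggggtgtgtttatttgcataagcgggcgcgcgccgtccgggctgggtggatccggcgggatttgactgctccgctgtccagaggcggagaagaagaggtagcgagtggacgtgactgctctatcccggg
BOK: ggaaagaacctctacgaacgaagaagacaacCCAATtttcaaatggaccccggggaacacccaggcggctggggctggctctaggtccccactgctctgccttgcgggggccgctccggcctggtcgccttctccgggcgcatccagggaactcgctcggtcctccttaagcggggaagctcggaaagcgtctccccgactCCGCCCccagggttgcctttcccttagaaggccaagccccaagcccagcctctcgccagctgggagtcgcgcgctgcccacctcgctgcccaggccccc
The APAF1 window is chr12:98645040-98645339 on the plus strand and the BOK window is chr2:241558495-241558794 on the plus strand. Each held 1 GC box and 1 CCAAT box, and the matches do not overlap. The table held 54 starts for 28 of the 35 genes, and 14 starts for 6 of the 9 genes that fell. A GC box lay in 10 of these 14 starts, in 38 of the 54 and in 45% of all 35116 promoters of the same length. Windows of the same gene can overlap, as for BID and XIAP, so the same site can count in several starts. A CCAAT box lay in 3 of the 14, in 15 of the 54 and in 34.6% of all. The E2F core, searched on both strands as TTTCCCGC, TTTCGCGC, TTTGCCGC or TTTGGCGC, lay in 0 of the 54 and in 3.31% of all promoters, which says only that these letters are not in these windows.

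In the death receptor complex, 2 of 4 tested genes fell, against 14.3% of all genes tested. TNFRSF10A, which encodes the TRAIL receptor DR4, was at 6.44, 6.49 and 6.45 on the knockdown arrays, against 7.16, 7.13 and 7.36 on the control arrays. The arrays of each group lay close together and the groups were well apart. TNFRSF10A fell by 0.76 ± 0.09 SE, or 1.69-fold (limma, adjusted p = 0.000369), the largest fall among the 31 genes. A dimmer probe set, at 5.50, 5.11 and 5.27 after knockdown and 5.98, 6.06 and 6.12 in control arrays, also fell (-0.76, adjusted p = 0.0111 over all probe sets). The other was at -0.30 over 6 arrays and at -0.42 without control replicate 3 (adjusted p = 0.166 and 0.00386). All 3 probe sets thus passed as lower once that array was left out.

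TRADD, an adaptor that joins the TNF receptor to survival or death signalling, was at 6.98, 6.95 and 6.96 after knockdown and 7.24, 7.17 and 7.27 in control arrays. The groups did not overlap, and TRADD fell by 0.26 ± 0.07 SE (limma, adjusted p = 0.0301). The TRADD call was lost when any array but control replicate 3 was left out (adjusted p between 0.0515 and 0.107) and with centring on array medians (0.0704). In the fit over all probe sets the same TRADD probe set passed only without control replicate 3 (adjusted p = 0.0597 over 6 arrays and 0.0277 without). FADD, the adaptor of the TRAIL and FAS receptors, was at 8.20, 8.23 and 8.11 after knockdown and 8.30, 8.38 and 8.39 in control arrays. These groups did not overlap either, but the difference of -0.18 (95% interval -0.33 to -0.03) did not pass (adjusted p = 0.0887).

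CFLAR, the decoy that competes with caspase-8, was at 9.23, 9.08 and 9.07 after knockdown and 8.93, 8.96 and 8.91 in control arrays. It was the other tested gene, with CASP6, whose knockdown values all lay above the control values. The difference of 0.19 ± 0.06 SE did not pass (adjusted p = 0.0547). It passed without control replicate 3 (0.18, adjusted p = 0.0289), with centred medians (0.23, 0.0282), after quantile normalization (0.20, 0.0477) and with the lowest 60% of probe sets left out (0.19, 0.0461). With probe sets ending in _x_at or _s_at avoided, CFLAR was at -0.34 (adjusted p = 0.119). Of 12 CFLAR probe sets past the filter, 9 were higher, 2 lower and 1 at 0. Over 6 arrays the only one called was lower: it was at 3.93, 4.04 and 3.94 after knockdown and 4.56, 4.75 and 4.85 in control arrays (-0.75, adjusted p = 0.00783). The means of this probe set, 3.97 after knockdown and 4.72 in control arrays, lay under the 4.76 of tissue-restricted genes. Without control replicate 3 this one and 2 higher ones were called, the brightest (0.18, adjusted p = 0.0467 over all probe sets) and another (0.25, 0.0462). Most CFLAR probe sets carry the _x_at ending, which marks probes that can be shared with other transcripts, and which of them read the long and short forms of c-FLIP was not determined.

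Among the IAPs 1 of 3 tested genes fell, against 14.3% of all genes tested. XIAP, the direct inhibitor of caspases 3, 7 and 9, was at 9.28, 9.18 and 9.25 on the knockdown arrays and 9.43, 9.43 and 9.50 on the control arrays. The groups were separate and close, and XIAP fell by 0.22 ± 0.06 SE, or 1.16-fold (limma, adjusted p = 0.0222). The XIAP call was lost without knockdown replicate 1, 2 or 3 (adjusted p = 0.0556, 0.105 and 0.0746), with centring on array medians (0.0672), with averaged probe sets (0.139) and with no intensity trend (0.0565). Of the 7 XIAP probe sets past the filter 5 were lower and 2 higher. One of the higher ones read 6.43, 6.39 and 6.29 after knockdown and 5.98, 6.18 and 5.47 in control arrays (0.49, adjusted p = 0.120), and it passed as higher without control replicate 3 (0.29, adjusted p = 0.0404), where 4 others passed as lower.

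BIRC2 and BIRC6 did not pass. BIRC2, which encodes the ubiquitin ligase cIAP1, was at 9.28, 9.30 and 9.15 after knockdown and 9.16, 9.21 and 9.10 in control arrays, a difference of 0.09 (95% interval -0.06 to 0.23). BIRC6, a giant enzyme that combines IAP and ubiquitin-conjugating functions, differed by -0.11 (-0.28 to 0.07), and by -0.02 without control replicate 3.

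Over all 92 probe sets of the tested genes, 12 passed as lower and 1 as higher, in a fit over 32759 probe sets of which 6.54% passed as lower and 4.05% as higher. Without control replicate 3 the counts were 20 lower and 5 higher, against 12% and 9.73% of all probe sets. Of the 23 genes with more than 1 probe set past the filter, 17 had probe sets of opposite sign over 6 arrays and 12 without that array. The counts by gene hold for the brightest probe set.

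**Figure D4:**
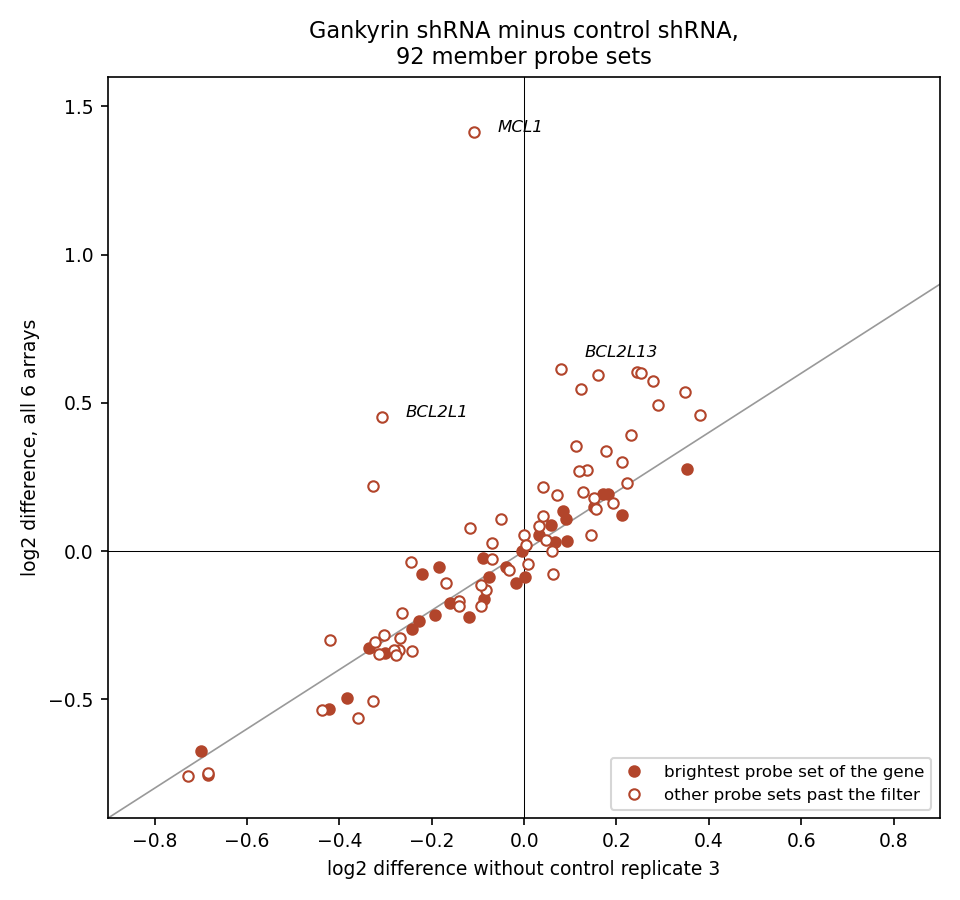
Log2 difference, gankyrin shRNA minus control shRNA, of 92 probe sets of the tested apoptosis genes, without control replicate 3 (horizontal axis) and over all 6 arrays (vertical axis), with the line of equal values. Filled points are the brightest probe set of each gene and lie near the line. Open points above it include the MCL1 probe set at 1.41 over 6 arrays and -0.11 without that array.

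Other genes of the pathway were counted from a list of 57, of which 47 were tested. Of the 47, 14 fell, 4 rose and 29 did not pass, with a median log2 difference of -0.05. These are 29.8% falls and 8.51% rises, against 14.3% and 8.13% of all genes. Without control replicate 3 the counts were 14 falls and 8 rises, where 16.6% of all genes fell and 12.7% rose. TNFRSF10D, a TRAIL receptor that binds the ligand without a complete death domain, had the smallest p. It was at 5.95, 6.11 and 5.81 after knockdown and 7.12, 7.28 and 7.50 in control arrays, and fell by 1.34 ± 0.12 SE (limma, adjusted p = 6.90e-05). With its probe sets averaged the difference was smaller (-0.83, adjusted p = 0.0460). BNIP3L, a mitophagy receptor related to BH3-only proteins, fell by 0.68 ± 0.06 SE (adjusted p = 6.93e-05). RIPK2, the kinase of NOD receptors, rose by 0.61 ± 0.07 SE (adjusted p = 0.000275) and PYCARD, the inflammasome adaptor ASC, by 0.71 ± 0.08 SE (adjusted p = 0.000309). A further 4 genes were picked after their values were seen, for their bearing on TNFRSF10A and BAK1. TNFRSF10B, which encodes the TRAIL receptor DR5, fell by 0.35 ± 0.07 SE (adjusted p = 0.00640). The remaining TRAIL receptor on the list, the decoy TNFRSF10C, was at -0.12 (adjusted p = 0.494), and the ligand TNFSF10 was at -0.15 (adjusted p = 0.355). BAX, the pore former beside BAK1, rose by 0.30 ± 0.08 SE (adjusted p = 0.0271), at 7.85, 7.65 and 7.84 after knockdown and 7.55, 7.47 and 7.43 in control arrays.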

How the data were processed

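SW480 cells were profiled on 6 arrays, 3 per group, grouped and numbered by the sample titles. The authors deposited 1 log2 signal for each probe set on each array. That these are log2 values follows from their range. The submitters' processing notes name MAS5 with no role or version, and how probes were summarised is not otherwise given in the sources used here. Arrays came on 1 scale and received no further normalization. Probe sets were named from the platform annotation, updated to RefSeq symbols through gene identifiers: 41091 had 1 gene, 1801 several and 11721 none. Left out were the 62 control probe sets and, of the remainder, the lowest 40% by mean over the 6 arrays (limit 3.6). The brightest probe set paired with a gene alone stood for that gene, and its other probe sets served as a check in a fit over all probe sets past the filter. Knockdown minus control was fitted with limma 3.58.1 in R 4.3.3 (lmFit, eBayes with intensity trend). These two-sided p-values were adjusted by the Benjamini-Hochberg method across the genes tested. Intervals cover 95% and are unadjusted. The number of arrays, 3 per group, limits the precision. The fit was tested on simulated data. Alternatives were other scalings, filters, probe set rules and variance settings, a replicate block and leaving out each array.

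The 35 genes and the further lists were chosen with earlier results of these data known. Genes named were PSMD10, NFIL3, all 35 members and the 4 of smallest p from the list of other cell death genes, with TNFRSF10B, TNFRSF10C, TNFSF10 and BAX added after their values were seen.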

Additional observations from a re-analysis of the deposited data

How the results depend on the processing

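Of 463 values of tested apoptosis genes under 15 alternatives, 421 stayed on the same side of the threshold. A call was lost with its sign kept in 31 and gained in 9. In 2 a call was lost and the sign turned. These were BCL2L1 at 0.04 with probe sets averaged and BOK at 0.053 with probe sets ending in _x_at or _s_at avoided. Of the 328 values of genes not called, 18 had the opposite sign, over 11 of 22 genes and none of them called; with probe sets averaged these included CASP2 (0.33), BCL2L2 (0.26), CASP8 (0.23) and MCL1 (0.19), and CFLAR was at -0.34 with _x_at and _s_at avoided. Among the 9 falls, 7 genes stayed negative throughout. The number of apoptosis genes called was 4, all lower, with probe sets averaged. Centring arrays on their medians gave 5 falls and 2 rises, quantile normalization 2 rises, and leaving out the lowest 60% of probe sets 1 rise. Without a replicate, the counts ran from 4 to 13 apoptosis genes called, 4 to 11 falls, 0 to 2 rises, 10 to 22 other cell death genes and 1732 to 4161 of all genes, each highest without control replicate 3. Centring moved the share of rises among all called genes to 48.8%, against 36.2% as deposited, and the median of all genes by 0.04. Calls among member probe sets numbered 25 without control replicate 3, against 13. In that fit with probe sets averaged, an alternative chosen after seeing the data, 7 of the 9 falls were called. Replicate numbers did not pair the arrays (correlations of deviations 0.02, 0.11 and -0.01). With a replicate block 7 apoptosis genes and 3049 of all genes were called, and BMF and TRADD lost their calls (adjusted p = 0.0668 and 0.0566). The cause of these changes was not tested.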
